A study of Mus musculus with 12 samples.

Results

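The genes of the cell division cycle and of DNA replication were followed through the formation of a ciliated airway epithelium in culture, with and without an shRNA against Myb. The set held 48 genes chosen by symbol: 19 that act in mitosis, 22 that act in S phase (the licensing of replication origins, DNA synthesis and nucleotide supply) and 7 that govern passage from G1 to S. On the array 106 probes carried the symbol of a member, and they covered 47 of the 48 genes, since no probe matched Ccnb1. A probe was used where its signal was detected above background (detection p under 0.01) on at least 3 of the 12 arrays, which 56 probes were. That left 35 members, of 9382 genes tested in all: 12 mitotic, 18 of S phase and 5 of G1 to S.

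Tracheal epithelium of C57BL/6J mice (males) gave the primary cells, grown on porous membranes with their upper surface exposed to air (an air-liquid interface, ALI). A lentivirus carried the shRNA. The 4 groups of 3 biological replicates were Myb shRNA at ALI day 9, scrambled shRNA at ALI day 9, Myb shRNA at ALI day 3 and scrambled shRNA at ALI day 3. Every group was thus transduced, and no untransduced culture was analysed here. Total RNA of the whole culture was hybridised to Illumina bead arrays, and the question addressed was how lowering Myb, a transcription factor, alters the epithelium as it matures. Levels below are log2 normalised intensities, differences are on the same log2 scale with their standard error (SE), and p-values are limma's, two-sided and adjusted over all 9382 genes by the Benjamini-Hochberg method, with calls made at 0.05. A level on this scale does not compare 1 gene with another, because probes differ in brightness.

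Cells that divide switch on cell cycle genes in waves. Cyclin D with Cdk4, then Cdk2, releases E2F factors in late G1. E2F then raises the genes of S phase, such as the Mcm helicase that is loaded at origins. Genes of mitosis, such as Cdk1, the aurora kinases, Plk1 and the anaphase-promoting complex activator Cdc20, follow under the control of a MuvB complex with B-Myb or FoxM1. Basal cells are the dividing progenitors of the tracheal epithelium. Ciliated cells have left the cycle, but while they build their many centrioles they use a part of the mitotic machinery again, and work in mouse multiciliated cells has placed Cdk1, Cdk2, Plk1 and the anaphase-promoting complex in that process. The same transcript can therefore come from a dividing progenitor or from a ciliating cell, and in RNA of whole cultures fewer cells of a type and less RNA per cell cannot be told apart.

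The promoters of the members were searched for letters known from cell cycle promoters. RefSeq promoter windows of 300 bases around the annotated start (GRCm38.p6) were found for 38 of the 48 members and for 30 of the 35 tested. The 3 motifs were searched on both strands: the E2F spellings TTTGGCGC, TTTGCCGC, TTTCGCGC and TTTCCCGC, the cell cycle homology region TTTGAA of mitotic promoters, and the CCAAT box CCAAT. E2F spellings on opposite strands can overlap each other. TTTGAA was in 8 of 11 mitotic members, 2 of 16 S phase members and 0 of 3 members of G1 to S, against 17.9% of all 32851 promoter windows. An E2F spelling was in 1 of 11 mitotic members, 7 of 16 S phase members and 1 of 3 members of G1 to S, against 2.26% of all windows. CCAAT was in 8, 10 and 1 of the same genes, against 37.4% of windows. A gene with several annotated starts was counted once if any of its windows matched. These matches describe letters in a window, not bound sites. The 6 windows printed here belong to members whose levels differed between the shRNAs at day 3, with 3 that were lower (Cdk1, Aurka, Cdc20) and 3 that were higher (Mki67, Mcm2, Mcm10) under Myb shRNA. Each runs 5' to 3' along the gene, and capitals mark the searched letters on either strand (ATTGG is CCAAT read on the other strand).
Cdk1 (chr10:69352863-69353162, minus strand): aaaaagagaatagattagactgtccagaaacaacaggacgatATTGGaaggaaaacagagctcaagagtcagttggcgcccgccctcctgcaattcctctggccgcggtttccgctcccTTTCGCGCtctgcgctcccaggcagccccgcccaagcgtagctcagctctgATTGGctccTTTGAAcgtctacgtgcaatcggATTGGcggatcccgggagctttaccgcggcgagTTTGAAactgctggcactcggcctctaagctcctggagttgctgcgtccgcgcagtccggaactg
Aurka (chr2:172370521-172370820, minus strand): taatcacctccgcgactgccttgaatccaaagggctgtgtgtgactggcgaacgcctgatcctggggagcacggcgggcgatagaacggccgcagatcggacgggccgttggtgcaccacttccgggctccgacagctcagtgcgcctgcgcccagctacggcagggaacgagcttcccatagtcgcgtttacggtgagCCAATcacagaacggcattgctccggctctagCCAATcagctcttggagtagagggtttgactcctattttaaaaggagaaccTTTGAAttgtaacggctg
Cdc20 (chr4:118437294-118437593, minus strand): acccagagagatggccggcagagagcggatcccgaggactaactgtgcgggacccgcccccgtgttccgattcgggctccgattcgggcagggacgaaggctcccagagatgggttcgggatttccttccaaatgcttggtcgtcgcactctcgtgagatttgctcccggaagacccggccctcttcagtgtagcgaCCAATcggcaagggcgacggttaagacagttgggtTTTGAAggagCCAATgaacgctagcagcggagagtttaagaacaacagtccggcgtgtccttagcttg
Mki67 (chr7:135716330-135716629, minus strand): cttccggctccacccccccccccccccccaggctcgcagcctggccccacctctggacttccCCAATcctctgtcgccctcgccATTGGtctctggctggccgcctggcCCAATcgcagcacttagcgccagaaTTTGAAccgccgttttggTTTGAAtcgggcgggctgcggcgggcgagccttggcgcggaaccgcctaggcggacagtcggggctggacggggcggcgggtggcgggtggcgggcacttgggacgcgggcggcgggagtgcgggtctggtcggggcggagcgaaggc
Mcm2 (chr6:88898731-88899030, minus strand): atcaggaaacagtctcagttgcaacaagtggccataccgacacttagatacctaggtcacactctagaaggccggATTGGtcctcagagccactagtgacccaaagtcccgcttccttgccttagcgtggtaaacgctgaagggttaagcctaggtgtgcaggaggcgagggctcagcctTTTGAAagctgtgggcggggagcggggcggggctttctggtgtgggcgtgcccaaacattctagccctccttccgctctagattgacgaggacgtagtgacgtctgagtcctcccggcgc
Mcm10 (chr2:5012742-5013041, minus strand): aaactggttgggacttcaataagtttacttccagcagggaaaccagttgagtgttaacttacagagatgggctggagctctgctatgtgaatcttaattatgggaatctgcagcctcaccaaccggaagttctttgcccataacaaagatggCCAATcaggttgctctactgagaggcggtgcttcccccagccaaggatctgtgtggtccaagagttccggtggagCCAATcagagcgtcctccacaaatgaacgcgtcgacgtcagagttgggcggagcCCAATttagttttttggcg
Cdk1 was the 1 tested mitotic member with all 3 kinds of letters: TTTCGCGC, TTTGAA at 2 places and a CCAAT box at 3 places. Aurka and Cdc20 had TTTGAA once and CCAAT at 2 places. Mki67, whose difference had the other sign, also had TTTGAA, at 2 places, and CCAAT at 3. Mcm2 had TTTGAA and CCAAT, and Mcm10 had CCAAT at 3 places.

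On each array 13247 to 15100 of 45281 probes were detected. All 4 Myb probes failed the detection filter, with 1 detection in 48 readings, so the arrays do not check the knockdown. The arrays numbered 3 stood apart from those numbered 1 and 2. In the mitotic members this shows in 3 of the 4 groups: their median level, centred per gene on the mean of all arrays, was 0.20, -0.02 and -0.46 at day 9 with Myb shRNA, -0.10, -0.29 and -0.76 at day 9 with scrambled shRNA, 0.08, 0.05 and 0.83 at day 3 with Myb shRNA and 0.50, 0.20 and 0.37 at day 3 with scrambled shRNA (replicates 1, 2 and 3). Replicate 3 was the lowest of its group in both day 9 groups and the highest at day 3 with Myb shRNA, and at day 3 with scrambled shRNA it lay between the other 2. Scrambled replicate 3 of day 3 stood apart in the markers, with a basal median of 0.31 beside -0.21 and -0.19 and a ciliated median of 0.61 beside 0.15 and 0.06 on replicates 1 and 2. Without that array 2751 genes in place of 1601 were called between the days with scrambled shRNA, and 328 in place of 155 for the interaction. Where a member's call is lost, or a class median moves by over 1.5 times, without the arrays numbered 3, an alternative chosen after seeing the data, the value is given beside the result.

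**Figure D1:**
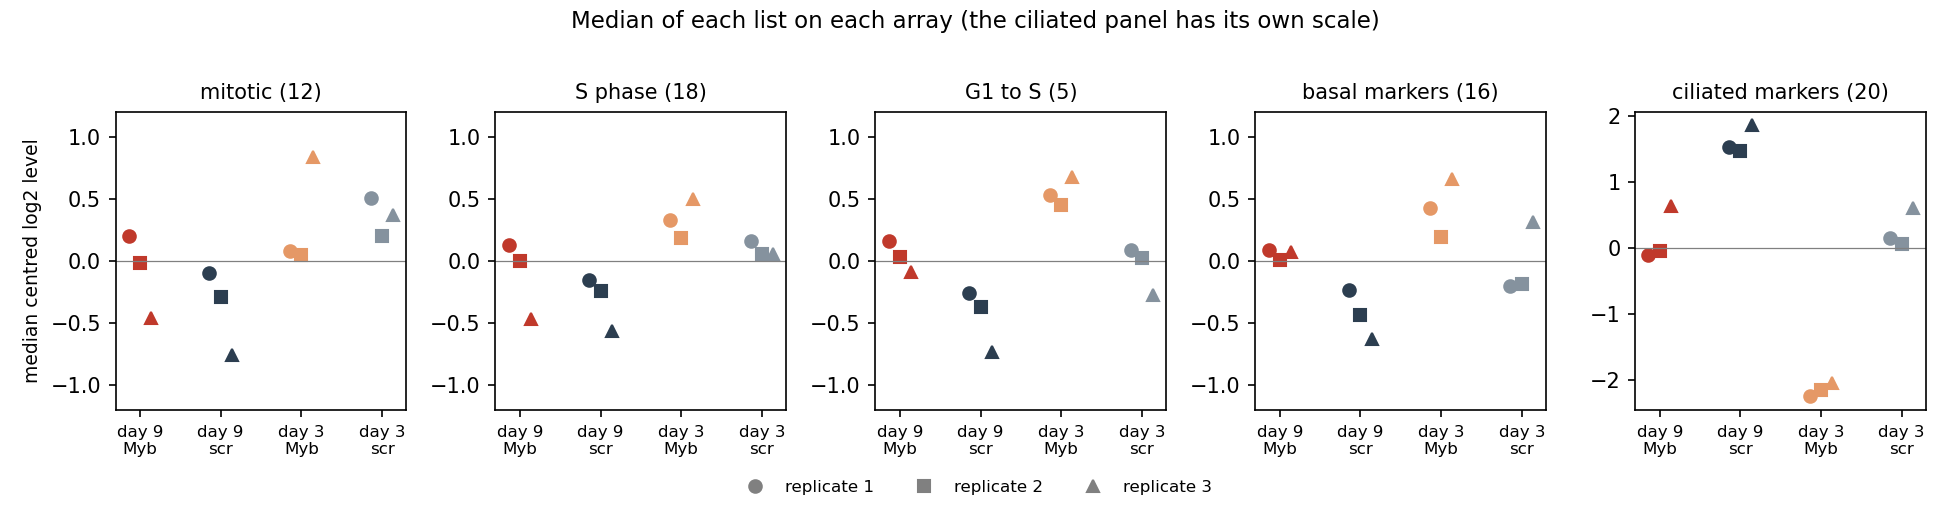
Median of each gene list on each array, on the log2 scale and centred per gene on the mean of the 12 arrays, for the mitotic, S phase and G1 to S members and for markers of basal and ciliated cells, with the number of genes tested in brackets. Colours are groups and symbols replicate numbers. Averaged over the arrays of a group, the G1 to S members and the basal markers are lowest at day 9 with scrambled shRNA and highest at day 3 with Myb shRNA, while the ciliated markers have the opposite order, between -2.24 and 1.86.

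At day 3, with Myb shRNA, 3 mitotic genes fell (Cdk1, Aurka and Cdc20) while Mki67, 4 S phase genes (Mcm2, Mcm4, Mcm10 and Rrm1) and 3 genes of G1 to S (Ccnd1, Ccnd2 and Cdk4) rose. In all 11 of 35 members were called (31.4%), against 22.7% of all genes tested, 8 higher (all genes 11.5%) and 3 lower (all genes 11.2%). Of the 8, Mki67 and Mcm10 passed the detection filter only through Myb shRNA groups, so their part in these counts is not independent of the filter. Among genes detected on all 12 arrays 9 of 27 members were called, beside 1710 of 7427 genes. No S phase or G1 to S member was called lower, and the median difference was 0.05 over the 12 mitotic, 0.18 over the 18 S phase and 0.52 over the 5 G1 to S members, beside 0.00 over all genes. The groups did not overlap for 12 members that were higher (all genes 17.9%) and 4 that were lower (all genes 18.7%), or 36.6% of all genes in either direction. Leaving out Myb replicate 1, Myb replicate 3 or scrambled replicate 1 of day 3 brought the count to 7. Without the arrays numbered 3 the mitotic median was -0.16, on the other side of 0, that of S phase 0.10 and that of G1 to S 0.26.

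Cdk1, the kinase that drives entry into mitosis, gave the clearest separation. Its levels were 8.04, 8.02 and 8.11 at day 3 with Myb shRNA, against 9.50, 9.25 and 9.32 with scrambled shRNA. The 2 groups lay over 1 log2 unit apart, and the difference was -1.30 (SE 0.15, adjusted p 3.9e-05), or 2.47-fold lower. Cdk1 was read by 1 of its 3 probes, the only 1 that passed the detection filter. Aurka encodes the aurora kinase of the centrosome and the spindle poles, and it is also known for its part in the disassembly of cilia. It stood at 6.78, 6.55 and 7.25 with Myb shRNA and at 7.99, 8.18 and 8.67 with scrambled shRNA, again without overlap, a difference of -1.42 (SE 0.25, adjusted p 0.00142). Cdc20, which activates the anaphase-promoting complex, read 8.92, 8.71 and 9.50 with Myb shRNA and 9.84, 9.67 and 10.10 with scrambled shRNA. Its difference was -0.83 (SE 0.25, adjusted p 0.0285), and all 4 of its probes gave a negative difference, 3 of them called. Each of the 2 kinases kept its call in every alternative and with any single array left out, whereas Cdc20 lost it without Myb replicates 1 or 2 or scrambled replicates 1 or 3 of day 3 (adjusted p 0.0602 to 0.095).

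Plk1 and Aurkb, the other mitotic kinases tested, were not called at day 3. Plk1, the polo-like kinase of centrosomes and spindle, read 7.39, 7.18 and 8.07 with Myb shRNA and 7.38, 7.25 and 7.62 with scrambled shRNA at day 3. These overlap, and the difference of 0.13 has a 95% interval of -0.57 to 0.83, which leaves its sign unsettled. Aurkb, the kinase of the chromosomal passenger complex, read 6.11, 5.76 and 6.44 against 6.16, 5.42 and 5.33 in the scrambled cultures and was detected on all 3 arrays with Myb shRNA and on 1 with scrambled shRNA. Its difference of 0.47 (interval -0.09 to 1.03) was not called. Aurkb was detected on 5 arrays and passed the detection filter only through those of day 3 with Myb shRNA. Its sign is therefore not support for a split among the kinases. Among the other mitotic members, differences ran from -0.07 for Top2a (topoisomerase II of chromosome condensation) to 0.66 for Nusap1 (a spindle protein), and none was called.

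Mki67, the gene of the proliferation antigen Ki-67, read 6.67, 5.73 and 7.70 with Myb shRNA and 5.02, 5.19 and 5.10 with scrambled shRNA. It was detected on 3 of 3 arrays with Myb shRNA and not well above background on any with scrambled shRNA, so its difference (fitted at 1.60, adjusted p 0.00622) is given as at least 2.17-fold higher. The difference had the opposite sign to those of Cdk1 and Aurka. Mki67 passed the detection filter only through the Myb shRNA groups, with 3 detections on each day and 0 with scrambled shRNA. Its sign is therefore not support for a split within the mitotic class. Its 3 Myb shRNA arrays spread over nearly 2 log2 units, with replicate 3 the highest. The call held without the arrays numbered 3 (adjusted p 0.00603).

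**Figure D2:**
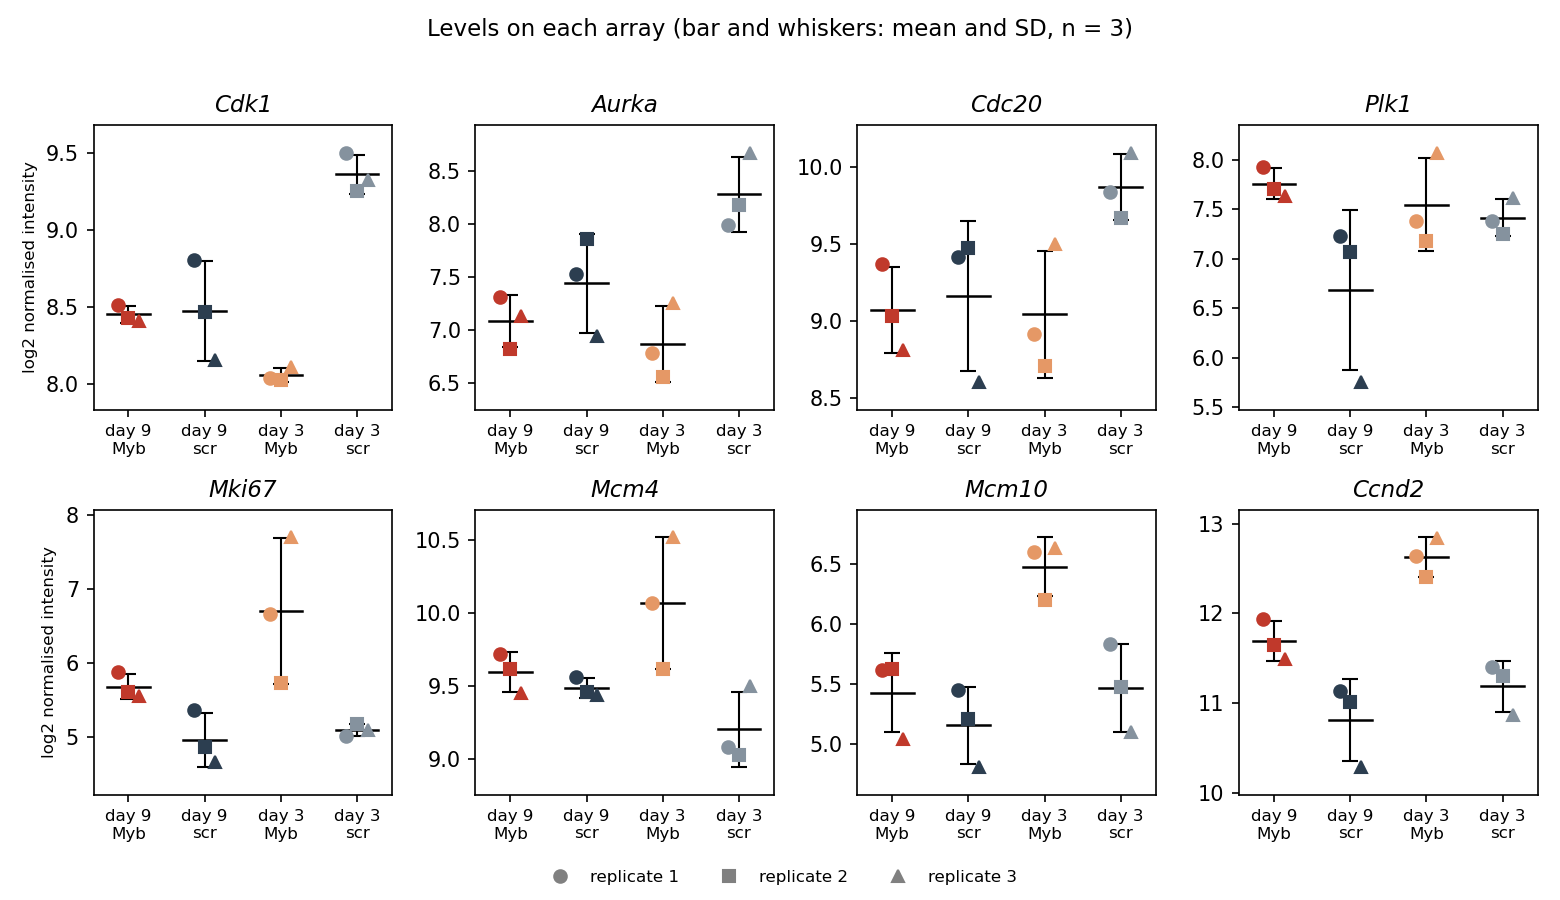
Log2 normalised intensity of 8 members on each of the 12 arrays (points, symbols by replicate number), with the mean and SD of each group (n = 3); each panel has its own vertical scale, which does not start at 0. By group mean, Cdk1, Aurka and, narrowly, Cdc20 are lowest at day 3 with Myb shRNA and highest at day 3 with scrambled shRNA, whereas Mki67, Mcm4, Mcm10 and Ccnd2 are highest at day 3 with Myb shRNA. Mki67 and Mcm10 passed the detection filter only through Myb shRNA groups.

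The S phase members that were called at day 3 were subunits or helpers of the replicative helicase and a subunit of ribonucleotide reductase. Mcm4, a subunit of the Mcm2 to Mcm7 helicase, read 10.07, 9.62 and 10.51 with Myb shRNA and 9.08, 9.03 and 9.50 with scrambled shRNA, a difference of 0.86 (SE 0.19, adjusted p 0.00591). Mcm10, which helps to start the helicase, read 6.60, 6.20 and 6.64 with Myb shRNA and 5.83, 5.47 and 5.10 with scrambled shRNA, where it was detected on 1 array. Its fitted difference was 1.01 (SE 0.24, adjusted p 0.00791), set against scrambled arrays of which 2 were below detection, and it passed the detection filter only through its 3 detections at day 3 with Myb shRNA, with 1 or 0 in each other group. Both genes separated the groups on every array. Mcm2 followed with 7.97, 7.84 and 8.41 with Myb shRNA against 7.43, 7.46 and 7.52 with scrambled shRNA, a difference of 0.61 (SE 0.16, adjusted p 0.0166). Mcm2 was not called without Myb replicate 3 or scrambled replicate 1 of day 3 (adjusted p 0.075 and 0.0533). The 6 tested subunits of the helicase did not move as a unit: Mcm5 (0.67), Mcm6 (0.31) and Mcm3 (0.05) had positive differences that were not called. For Mcm7 the brighter probe gave -0.60 and the dimmer 0.14, neither called.

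Rrm1, the large subunit of ribonucleotide reductase that supplies deoxynucleotides, read 9.29, 8.96 and 9.67 with Myb shRNA and 8.66, 8.82 and 8.94 with scrambled shRNA at day 3. Its difference of 0.50 (SE 0.16, adjusted p 0.0403) was lost with 3 of 10 alternatives (median scaling, no detection filter, and only the 2 groups in the fit) and without any of 8 arrays, all but the replicates 3 of day 9 and Myb replicate 2 and scrambled replicate 3 of day 3 (adjusted p 0.0504 to 0.172). The small subunit Rrm2 was detected on 5 of the 12 arrays and had a difference of -0.31 that was not called. None of the 4 tested members of the DNA synthesis machinery was called: Fen1 (flap endonuclease) had 0.23, Rpa2 (single-strand binding) 0.17, Rfc4 (clamp loader) 0.14 and Lig1 (DNA ligase) -0.15. Tk1, the thymidine kinase of S phase, had a difference of 0.94 with an SE of 0.56 and was not called. It spread widely within 3 groups: replicate 3 read 5.29 at day 9 with Myb shRNA, 4.82 at day 9 with scrambled shRNA and 5.71 at day 3 with scrambled shRNA, each over 1 log2 unit below the other 2 arrays of its group.

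The 5 tested regulators of G1 to S all had positive differences at day 3. Ccnd2, 1 of the D cyclins, read 12.64, 12.40 and 12.84 with Myb shRNA and 11.40, 11.30 and 10.87 with scrambled shRNA, a difference of 1.44 (SE 0.21, adjusted p 0.000301). Ccnd1 read 12.98, 13.12 and 13.15 with Myb shRNA and 12.61, 12.55 and 12.33 with scrambled shRNA, a difference of 0.59 (SE 0.18, adjusted p 0.0319). Both cyclins lay higher on all 3 Myb shRNA arrays. Ccnd2 kept its call throughout, and Ccnd1 lost its call without any 1 of the 6 day 3 arrays (adjusted p 0.0524 to 0.0952). Cdk4, their partner kinase, was called at 0.36 (SE 0.12, adjusted p 0.0394), but not with 4 of 10 alternatives nor without any of 9 arrays, all but the replicates 3 of day 9 and scrambled replicate 1 of day 3 (adjusted p 0.0514 to 0.12). Cdk2, the kinase of cyclins E and A, read 8.98, 8.90 and 9.18 with Myb shRNA and 8.65, 8.72 and 8.58 with scrambled shRNA; its difference of 0.37 had an adjusted p of 0.075, and of 0.0348 with the replicate number as a block. Gins2, a part of the helicase complex, behaved likewise in the other direction, at -0.57 with an adjusted p of 0.112, and of 0.00801 with the block.

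**Figure D3:**
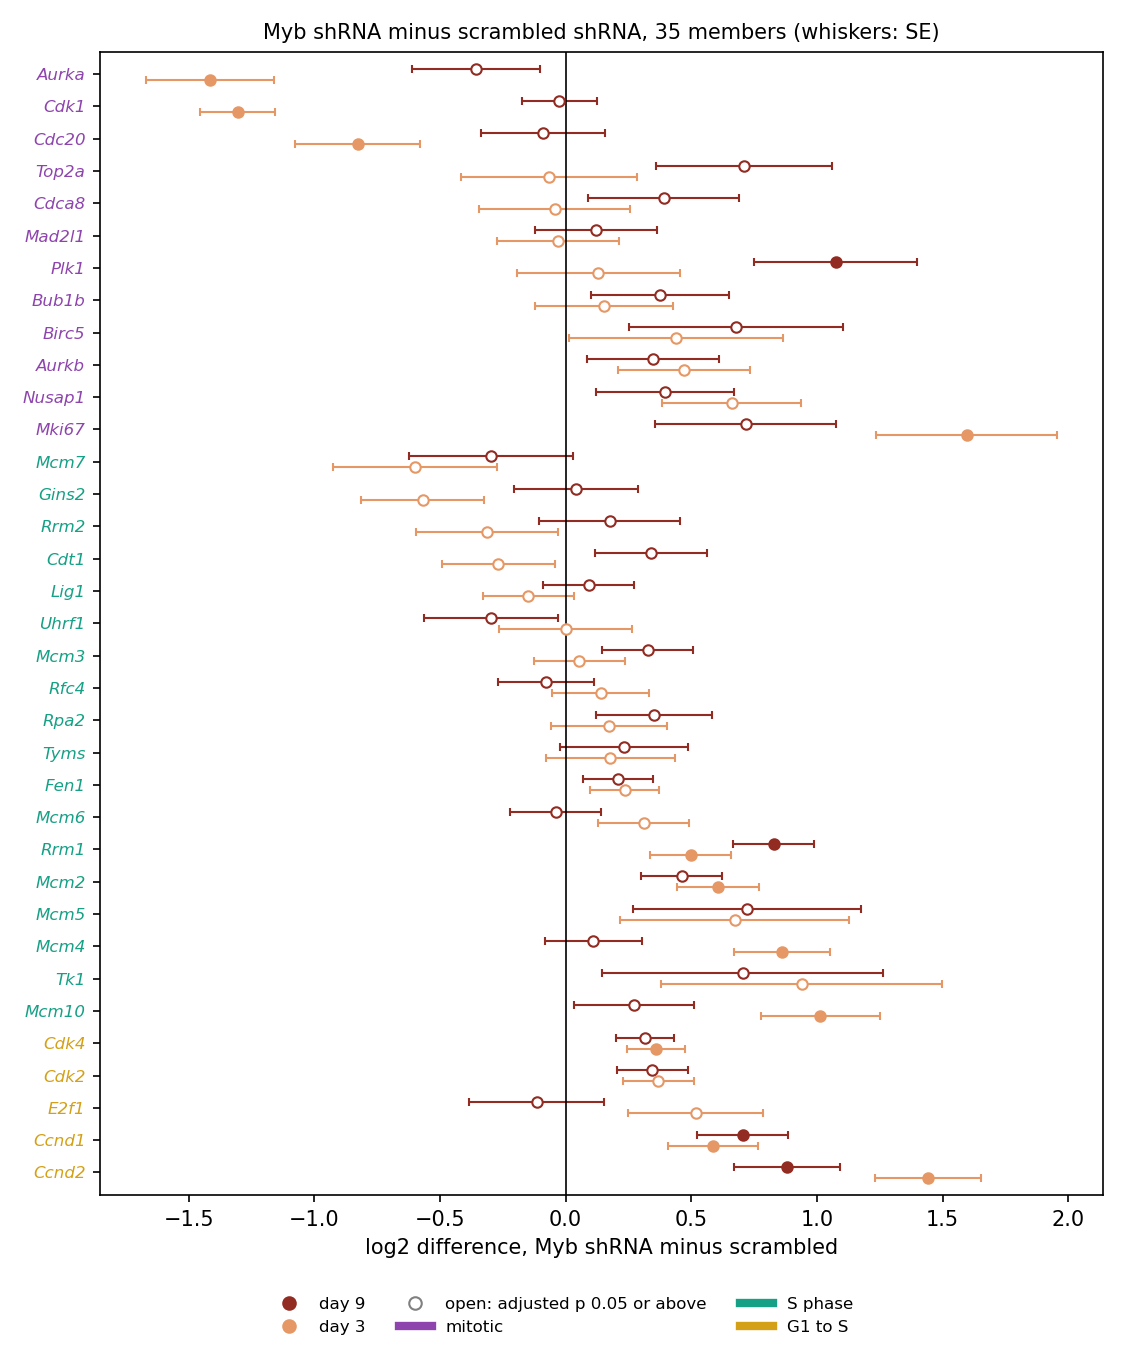
Log2 difference, Myb shRNA minus scrambled shRNA, for the 35 tested members at day 9 and day 3 (points with SE, filled where the adjusted p is under 0.05), ordered by class and by the day 3 difference. At day 3 the mitotic members span from -1.42 for Aurka to a fitted 1.60 for Mki67, for which at least 2.17-fold is the bound, while at day 9 all called members lie above 0.

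Markers of the cell types moved in the same comparison. At day 3 the ciliated markers were lower with Myb shRNA (18 of 20 called, median -2.51), with a summed level of 4374 to 4432 on the Myb shRNA arrays and 20656 to 32824 on the scrambled arrays. Basal markers were higher (7 of 16 called, median 0.53; summed 44041 to 50948 and 30714 to 38184). Club cell markers were mostly lower (6 called lower and 1 higher, of 11 tested). Of that list Cyp2f2, Gsto1 and Cbr2 read 15.1 to 15.6 on every array, close to the highest intensities. A difference in these genes could be missed in any comparison. Of the markers of cells that an epithelial culture should lack, 3 of 10 for fibroblasts and smooth muscle, 4 of 10 for leukocytes and 1 of 6 for endothelium passed the detection filter. Sparc and Esam were called higher with Myb shRNA, and Cd68 and Lyz2 lower. Summed levels of these lists were 4046 to 4450 with Myb shRNA and 1521 to 2337 with scrambled shRNA for fibroblasts and smooth muscle, 1638 to 2792 and 5886 to 10088 for leukocytes, and 129 to 179 and 35.2 to 64.1 for endothelium. Such sums follow the brightest gene, Lyz2 for leukocytes. Acta2 (9.73 with Myb shRNA, 9.95 with scrambled shRNA) and Dcn (7.63 and 7.63) were not called, and the fibroblast and smooth muscle median was -0.000168. Neither Laptm5 (7.35 and 7.69) nor Csf1r (5.56 and 5.38) was called. The part of these shifts in the differences of the cell cycle genes was not tested.

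At day 9, with Myb shRNA, 4 members rose (Plk1, Rrm1, Ccnd1 and Ccnd2) and none was called lower. That is 11.4% of the 35 members, against 16.1% of all genes (higher 6.65%, lower 9.48%). At an unadjusted p under 0.05, limma gave 7 members higher and 0 lower, beside 1312 higher and 1303 lower of all 9382 genes. The median difference was 0.38 over the mitotic, 0.22 over the S phase and 0.35 over the G1 to S members, beside 0.05 over all genes. Of the 35 differences 27 were positive, beside 5426 of 9382 over all genes. The groups did not overlap for 10 members, each higher (all genes 19.8%), and for 0 that were lower (all genes 16.9%, either direction 36.7%). The count fell to 1 or 2 without Myb replicate 1 (1 member), Myb replicate 2 (2) or scrambled replicate 3 (2) of day 9, and was 12 without the arrays numbered 3. That last fit also called more of all genes (counts at the end).

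Rrm1 gave the firmest difference at day 9. It read 8.94, 8.85 and 9.04 with Myb shRNA and 8.05, 8.26 and 8.04 with scrambled shRNA, a difference of 0.83 (SE 0.16, adjusted p 0.00316) that held in every alternative and with any array left out. Ccnd2 read 11.94, 11.65 and 11.49 with Myb shRNA and 11.13, 11.01 and 10.29 with scrambled shRNA, a difference of 0.88 (SE 0.21, adjusted p 0.0112, or 0.0564 without Myb replicate 1 of day 9). Ccnd1 read 13.01, 12.80 and 12.53 with Myb shRNA and 12.36, 12.29 and 11.57 with scrambled shRNA, a difference of 0.70 (SE 0.18, adjusted p 0.0162). Both D cyclins were thus higher at both days, although Ccnd1 at day 9 was not called without Myb replicates 1 or 2 or scrambled replicate 3 of that day (adjusted p 0.0513 to 0.0791).

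Plk1 was the 1 mitotic kinase called at day 9. It read 7.93, 7.71 and 7.63 with Myb shRNA and 7.23, 7.07 and 5.75 with scrambled shRNA, a difference of 1.07 (SE 0.32, adjusted p 0.037). Scrambled replicate 3 lay over 1 log2 unit below the other 2, and the difference was 0.67 without the arrays numbered 3 (adjusted p 0.00218). The call was lost with cyclic loess or with only the 2 groups in the fit, and without any Myb shRNA array or scrambled replicate 3 of day 9 or Myb replicate 1 of day 3 (adjusted p 0.0513 to 0.124). Cdk1 read 8.51, 8.43 and 8.41 with Myb shRNA and 8.80, 8.47 and 8.15 with scrambled shRNA, which overlap; the difference of -0.03 had an interval of -0.35 to 0.30. Aurka read 7.30, 6.82 and 7.13 with Myb shRNA and 7.53, 7.86 and 6.94 with scrambled shRNA, a difference of -0.35 (interval -0.90 to 0.19). Aurkb was near background in both groups, at 5.78, 5.56 and 5.08 with Myb shRNA and 5.33, 5.23 and 4.81 with scrambled shRNA, with 1 detection in all. Mki67 read 5.88, 5.62 and 5.56 with Myb shRNA and 5.37, 4.87 and 4.66 with scrambled shRNA, where no array was well above background, a bound of at least 1.14-fold that was not called (adjusted p 0.218). For Mcm2, at 7.77, 7.71 and 7.43 with Myb shRNA and 7.20, 7.32 and 7.00 with scrambled shRNA, the groups did not overlap, and the adjusted p of 0.0724 became 0.0446 with the replicate block. Cdk4, at 0.32, likewise had an adjusted p of 0.0845, and of 0.0344 with the block, which called 6 members at day 9, all of them higher. Over all genes the block called 2331 of 9382 at day 9, in place of 1513.

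At day 9 the ciliated markers were again lower with Myb shRNA (19 of 20 called; summed level 18546 to 29905 with Myb shRNA and 54773 to 71375 with scrambled shRNA), and basal markers were higher (5 of 16 called; summed 32902 to 35462 and 20934 to 24635). Club cell markers were lower in 6 of 11 (median -0.85), Sparc of the fibroblast list (1.56) and Esam of the endothelial list (1.96) were higher, and Lyz2 of the leukocyte list was lower (-1.31). Their part in the differences of the members was not tested.

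In the scrambled cultures 6 members were called lower at day 9 than at day 3, and none was called higher. They were Cdk1, Aurka and Cdca8 of mitosis, Mcm3 and Rrm1 of S phase, and Cdk2 of G1 to S. These 6 are 17.1% of the 35 members, and 17.1% of all genes were called (lower 7.51%, higher 9.55%). In the fit with the replicate number as a block 14 members were called, all lower, which adds Cdc20, Birc5, Mcm5, Gins2, Rpa2, Fen1, Tyms and Ccnd1. That fit also called more of all genes, 2818 of 9382 in place of 1601. The differences were negative for 33 of 35 members, beside 5458 of 9382 genes. Their medians were -0.70 (mitotic), -0.40 (S phase) and -0.38 (G1 to S), beside -0.07 over all genes. The groups did not overlap for 15 members, each lower (all genes 18.3%; higher 14%; either 32.3%). Without the arrays numbered 3 the mitotic median was -0.35, and 16 members were called, in a fit that also called more of all genes (counts at the end). With cyclic loess, or without scrambled replicate 3 of day 9, Myb replicate 1 of day 3 or scrambled replicate 2 of day 3, the count was 3.

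Cdk1 fell by 0.89 in the scrambled cultures (SE 0.15, adjusted p 0.00124), with every day 9 array below every day 3 array. Cdk2 read 7.98, 7.98 and 7.72 at day 9 and 8.65, 8.72 and 8.58 at day 3, a difference of -0.76 (SE 0.14, adjusted p 0.00249). Rrm1 fell by 0.69 (SE 0.16, adjusted p 0.0103). These 3 calls held in every alternative and with any array left out. Those of Aurka (-0.84, adjusted p 0.0379), Cdca8 (-0.98, 0.0404) and Mcm3 (-0.56, 0.0499) did not. Cdca8, which encodes borealin of the chromosomal passenger complex, read 7.88, 7.79 and 6.74 at day 9 and 8.50, 8.33 and 8.52 at day 3. Its 2 probes were both called. Mcm3 read 6.03, 6.00 and 5.64 at day 9 and 6.37, 6.31 and 6.66 at day 3, and lost its call in 6 of 10 alternatives and without any of 10 arrays, all but Myb replicates 2 and 3 of day 3 (adjusted p 0.0567 to 0.21). Aurka lost its call without scrambled replicates 1 or 3 of day 9, scrambled replicates 2 or 3 or Myb replicate 1 of day 3 (adjusted p 0.0538 to 0.182), and Cdca8 without Myb replicate 2 or scrambled replicate 3 of day 9, Myb replicate 1 or any scrambled array of day 3 (adjusted p 0.0531 to 0.186). Without the arrays numbered 3 Aurka had -0.39 (adjusted p 0.0901) and Mcm3 -0.32 (adjusted p 0.159).

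In the Myb shRNA cultures Cdk2, Ccnd2, Mcm10 and Mcm6 were called lower at day 9 than at day 3, and no mitotic member was called in either direction. The 4 called are 11.4% of the members, against 16.7% of all genes (lower 7.43%, higher 9.26%). The fit with the replicate block called 14: Cdk1 higher and 13 lower, among them the mitotic members Birc5 (adjusted p 0.047) and Mki67 (adjusted p 0.0324). Over all genes that fit called 2367 of 9382, in place of 1566. Groups without overlap were seen for 1 member that was higher, Cdk1 (all genes 17%), and 11 that were lower (all genes 17.7%, either direction 34.7%). Cdk2 read 8.48, 8.21 and 8.03 at day 9 and 8.98, 8.90 and 9.18 at day 3, a difference of -0.78 (SE 0.14, adjusted p 0.00164). Ccnd2 fell by 0.94 (SE 0.21, adjusted p 0.00755). Mcm10 fell by 1.05 (SE 0.24, adjusted p 0.00761), to 5.61, 5.62 and 5.04 at day 9, where 1 of 3 arrays detected it. Since Mcm10 passed the detection filter only through its day 3 arrays with Myb shRNA, its fall from that group is not independent of the filter. Mcm6, another helicase subunit, read 7.76, 7.66 and 7.23 at day 9 and 8.39, 7.99 and 8.50 at day 3 (-0.74, SE 0.18, adjusted p 0.012), and was not called without Myb replicate 3 of day 9 or Myb replicate 1 of day 3 (adjusted p 0.0561 and 0.0518). Median differences were -0.36 for the mitotic, -0.43 for the S phase and -0.65 for the G1 to S members. Of these the mitotic median does not have a settled sign, since it was 0.03 without the arrays numbered 3 and 0.03 over the genes detected on all 12 arrays. Without the arrays numbered 3 the other medians were -0.20 for S phase and -0.29 for G1 to S. Ciliated markers were called higher at day 9 in 19 of 20 genes with Myb shRNA and in 18 of 20 with scrambled shRNA, and basal markers lower in 5 and 4 of 16, with summed levels as given above. Club cell markers were higher at day 9 in 6 of 11 with Myb shRNA and in 4 of 11 with scrambled shRNA. Fibroblast and smooth muscle markers were lower in 3 of 3 with Myb shRNA (median -1.71, summed 1098 to 1464 at day 9 and 4046 to 4450 at day 3) and in 2 of 3 with scrambled shRNA (median -1.30, summed 564 to 635 at day 9 and 1521 to 2337 at day 3). Of the leukocyte list Lyz2 was higher and Laptm5 lower at day 9 with either shRNA. Their part in these differences was not tested. The counts of members called with Myb shRNA were 10 without the arrays numbered 3 and 7 without Myb replicate 2 or scrambled replicate 3 of day 3. The fit without the arrays numbered 3 also called more of all genes (counts at the end).

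Within the mitotic class, 5 of 12 members had positive differences across the days with Myb shRNA: Cdk1 (0.39), Aurka (0.22), Plk1 (0.21), Top2a (0.20) and Cdc20 (0.03). Over all genes 4375 of 9382 were positive, and none of the 5 was called in the main fit. With scrambled shRNA the differences of these 5 were -0.89, -0.84, -0.73, -0.58 and -0.71, and all 12 mitotic members were negative there. The 2 sets of differences share no array. The 5 were picked by their sign with Myb shRNA, however, so the contrast over them is not support for a reversal. For Cdk1 the adjusted p with Myb shRNA was 0.0922, and 0.0316 with the replicate block.

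**Figure D4:**
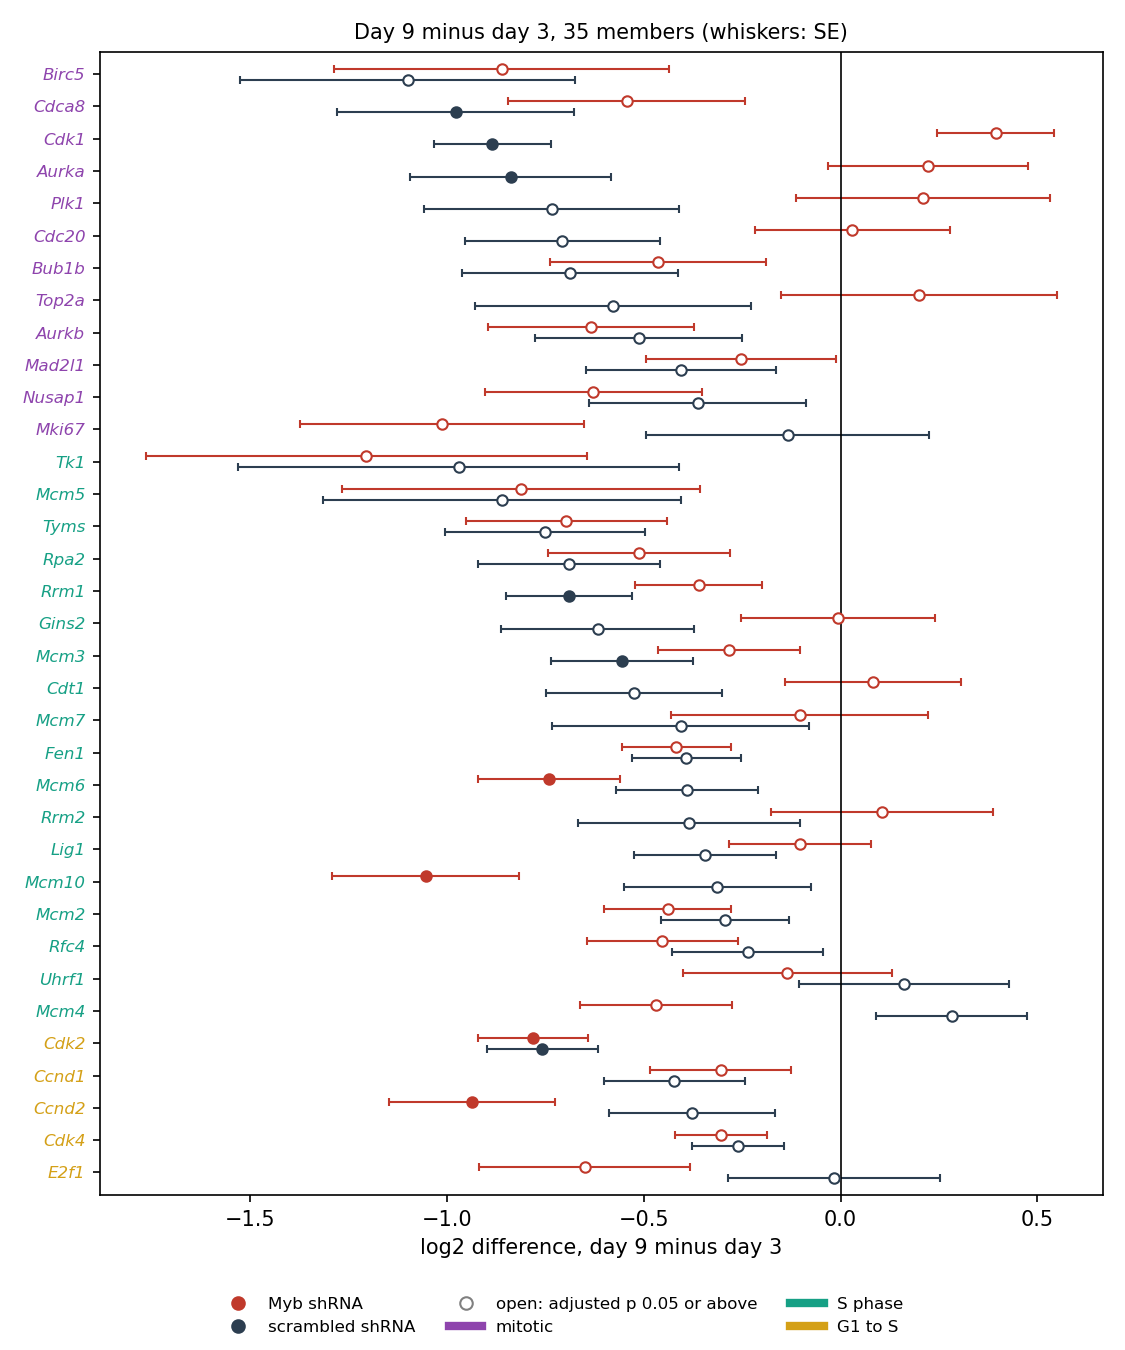
Log2 difference, day 9 minus day 3, for the 35 tested members with Myb shRNA and with scrambled shRNA (points with SE, filled where the adjusted p is under 0.05), ordered by class and by the difference with scrambled shRNA. With scrambled shRNA 33 of 35 points lie below 0, while with Myb shRNA 5 mitotic members (Cdk1, Aurka, Plk1, Top2a and Cdc20) and Cdt1 and Rrm2 lie above 0. Mki67 was not well above background on either day with scrambled shRNA.

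The interaction asks whether the difference between the shRNAs changed from day 3 to day 9. It was called for 1 of 35 members (2.86%), beside 1.65% of all genes (higher 0.746%, lower 0.906%). That member was Cdk1, at 1.28 (SE 0.21, adjusted p 0.00886): its difference between the shRNAs was -0.03 at day 9 and -1.30 at day 3. The call held in each of 9 alternatives and with any array left out. Aurka had an interaction of 1.06 (SE 0.36, adjusted p 0.187), Plk1 0.94 (adjusted p 0.373), Cdc20 0.74 (adjusted p 0.364), Mcm4 -0.75 (adjusted p 0.219) and Mcm10 -0.74 (adjusted p 0.339), none called. For these 5 a change of the shRNA difference between the days is therefore not shown, whatever their calls on each day. Without the arrays numbered 3 the interaction was called for 8 members, and for more of all genes as well (counts at the end).

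Ranked by group mean, 26 of the 35 members had their lowest level at day 9 with scrambled shRNA, as had 37.0% of all genes: 9 of 12 mitotic, 13 of 18 S phase and 4 of 5 G1 to S members. Day 3 with Myb shRNA held the highest mean for 12 of 18 S phase and 5 of 5 G1 to S members, but for 5 of 12 mitotic members, and the lowest for 3 mitotic members, Cdk1, Aurka and Cdc20. Another 5 mitotic members peaked at day 3 with scrambled shRNA. Mcm10, Aurkb and Mki67 are among those that peaked at day 3 with Myb shRNA. They passed the detection filter only through Myb shRNA groups, so their place in this ranking is not independent of the filter. For all genes the share that peaked at day 3 with Myb shRNA was 34.9%, and 28.9% were lowest in that group. At day 3 with scrambled shRNA 26.2% of all genes peaked. The mean of Cdc20 at day 3 with Myb shRNA was lowest only narrowly, at 9.04 beside 9.07 (Myb shRNA) and 9.16 (scrambled shRNA) at day 9. For Cdk1 the group means were 8.45 at day 9 with Myb shRNA, 8.47 at day 9 with scrambled shRNA, 8.05 at day 3 with Myb shRNA and 9.36 at day 3 with scrambled shRNA, and the 2 day 9 groups do not differ beyond their spread.

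The 13 members that were not tested include several widely used proliferation genes. Pcna, the sliding clamp of DNA polymerase, was detected on 0 of 12 arrays, with levels of 4.70 to 5.15. Ccne1, the cyclin that activates Cdk2, was detected on 2 arrays, at 5.30, 5.44 and 5.43 at day 9 with Myb shRNA, 4.89, 5.24 and 5.25 at day 9 with scrambled shRNA, 5.08, 5.42 and 4.99 at day 3 with Myb shRNA and 5.43, 5.84 and 5.28 at day 3 with scrambled shRNA. The cyclins Ccna2 and Ccnb2 and the mitotic genes Bub1, Ube2c and Tpx2, with Prim1 of the primase, were detected on 0 arrays with levels between 4.51 and 5.23. Cdc25c, Cdc6 and Ccne2 were detected on 2 arrays and Pole on 1, by their best probe. All of these levels lie near or below the lowest that any detected probe had (5.37 to 5.69 per array), so a difference in these genes was not detectable here. Mitotic cyclins, the partners of Cdk1 in dividing cells, are thus without a value.

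Other cell cycle genes were followed by lists, from which the called genes with the smallest p are named, up to 4 a comparison, and any further ones were chosen after their values were seen. Of 46 further mitotic genes 24 were tested, and at day 3 Kif23 and Cdc25a were higher with Myb shRNA and Bub3 and Melk lower (16.7%, all genes 22.7%). Kif23, a kinesin of the central spindle, read 10.25, 10.60 and 10.53 with Myb shRNA and 9.03, 8.77 and 8.12 with scrambled shRNA (1.82, SE 0.20, adjusted p 3.38e-05). It was also higher at day 9 (1.18, adjusted p 0.00142). Its differences had the opposite sign to those of Cdk1 and Aurka. The day 3 call of Bub3 was lost without Myb replicates 1 or 3 or scrambled replicates 1 or 2 of day 3, and that of Melk without any array but scrambled replicate 1 of day 3 (adjusted p 0.0535 to 0.119). Melk, a mitotic kinase, was lower at day 9 (-0.63, adjusted p 0.00754, not called with median scaling), and unlike the members it was higher at day 9 than at day 3 in both the Myb shRNA (0.79, adjusted p 0.00142) and the scrambled cultures (1.01, adjusted p 0.00033).

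Of 47 further S phase genes 29 were tested, and at day 3 the DNA methyltransferase Dnmt1 was higher with Myb shRNA and Rfc2, Hat1, Clspn and Rad51ap1 were lower (17.2%, all genes 22.7%). Each of these 5 calls was lost without some array of day 3 (adjusted p 0.0503 to 0.181), among them Myb replicate 2 for Rfc2, Hat1, Clspn and Rad51ap1 and Myb replicate 3 for Dnmt1. The median over the list was -0.12, beside 0.18 over the S phase members. Rfc2, a clamp loader subunit, was lower at day 9, with 10.17, 9.96 and 10.19 with Myb shRNA against 10.89, 10.91 and 11.21 with scrambled shRNA (-0.89, SE 0.11, adjusted p 0.000211). Clspn, which encodes the checkpoint adaptor claspin, read 5.73, 5.47 and 5.08 with Myb shRNA and 7.30, 7.23 and 6.43 with scrambled shRNA at day 9 (-1.56, SE 0.34, adjusted p 0.00668). Of 10 further G1 regulators 7 were tested, and Cdc25a, the phosphatase that activates Cdk2, was the 1 called at day 3 (14.3%, all genes 22.7%), higher with Myb shRNA (0.65, SE 0.13, adjusted p 0.0036).

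A further list held relatives of cell cycle genes that multiciliated cells use while they form centrioles. Of 25 listed 13 were tested, and at day 3 with Myb shRNA 6 were lower and 0 higher (46.2%, all genes 22.7%). The list was chosen with earlier results of these data known, and 18 of 20 ciliated markers were lower in the same comparison. Ccno, the cyclin O that marks cells forming centrioles, read 10.17, 10.06 and 10.55 with Myb shRNA and 11.72, 11.90 and 12.65 with scrambled shRNA (-1.83, SE 0.22, adjusted p 6.28e-05). Ccna1, an A-type cyclin best known from the germ line, read 4.90, 4.82 and 5.09 with Myb shRNA, not well above background, and 8.46, 8.57 and 9.02 with scrambled shRNA, at least 9.12-fold lower (adjusted p 1.5e-07). In both genes the groups lay far apart. Foxn4, a transcription factor of multiciliated cells, read 5.25, 5.31 and 5.63 with Myb shRNA and 7.60, 7.87 and 8.77 with scrambled shRNA (fitted -2.68, SE 0.26, adjusted p 1.02e-05). Of the Myb shRNA arrays replicates 1 and 2 lay below the lowest detected level of their array, 5.50 and 5.61. Ccdc78, a deuterosome protein, was at least 2.00-fold lower (adjusted p 0.00044), being not well above background with Myb shRNA. Mcidas and Cep152 were the other 2.

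At day 9 with Myb shRNA 2 of these 13 were lower, Ccna1 (-1.22, adjusted p 0.00108) and Ccdc78 (-1.12, adjusted p 0.00681). That is 15.4%, near the 16.1% of all genes called. Ccno read 11.64, 11.74 and 12.10 with Myb shRNA and 11.59, 11.77 and 11.30 with scrambled shRNA, and was not called. The interaction was called for 4 of 13 (30.8%, all genes 1.65%), all positive, and for 7 of 20 ciliated markers, also positive. The 4 were Ccno (2.11, SE 0.31, adjusted p 0.00579), Foxn4 (2.15, SE 0.37, adjusted p 0.0112), Mcidas (2.21, SE 0.46, adjusted p 0.0293) and Ccna1 (2.53). The fitted values of Foxn4 and Ccna1 include day 3 levels with Myb shRNA that were below detection, on at least 2 of 3 arrays for Foxn4 and on 3 for Ccna1. Mcidas lost this call with median scaling and without day 9 Myb replicate 1, any day 9 scrambled array or day 3 Myb replicates 1 or 2 (adjusted p 0.053 to 0.0972). The summed level of the ciliated markers, given above, moved in the same comparisons, and its part was not tested.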

How the data were processed

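Illumina bead-array intensities and detection p-values of 12 samples were used as deposited, unnormalised and without background correction per the file headers. The series matrix, also deposited, held processed values whose log2 scale was checked against the same arrays (rank correlation 1 on each). Per the submitters' processing notes, the tools included BeadStudio 3.0 and limma. Intensities were background-corrected and quantile-normalised with neqc (limma 3.58.1 in R 4.3.3, offset 16) and taken to log2. Probes needed a detection p under 0.01 on at least 3 arrays. A gene was represented by its brightest probe, named through the platform table and RefSeq symbols (35784 probes with 1 symbol, 9497 with none). Group means were fitted with lmFit and eBayes (trend) over 12 arrays, with 8 residual degrees of freedom, and the median SE of a difference was 0.167. This main fit held no replicate block, so its calls and p-values do not use any pairing. The block was run as an alternative. The number of arrays limits the precision. P-values were two-sided and adjusted over 9382 genes at 0.05. The code was tested on simulated data.

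Replicate numbers were taken to pair samples in the 4 comparisons of 2 groups, because all same-numbered pairs correlated above 0.1 in their deviations from the group means (lowest r 0.297 between shRNAs at day 9, 0.151 at day 3, 0.108 between days with Myb shRNA and 0.267 with scrambled shRNA). The lowest r over all groups was 0.0198, and for the interaction no pairing was assumed. Arrays numbered 1 and 2 also correlated across numbers, with 0.477 between Myb replicate 2 and scrambled replicate 1 of day 3. Myb replicate 1 of day 9 and Myb replicate 2 of day 3 had 0.414. Arrays numbered 3 had negative r with those numbered 1 or 2 of other groups. These values thus do not show that 1 pairs with 1 and 2 with 2, which limits the block p-values. A probe not detected on any array of a group has only a bound there, given as "at least", against the higher of its own signal and the lowest detected level per array.

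The members and all lists were chosen with earlier results of these data known. Every member called in a comparison is named, as are Cdk1, Cdk2, Plk1, Aurka, Aurkb, Ccne1, Mcm2, Pcna and Mki67 in any case. From each further list up to 4 called genes a comparison with the smallest p were named. Alternatives covered the background offset, normalisation, detection filter, probe choice, trend, array weights, the groups in the fit, the processed values, the replicate block and each array left out.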

Additional observations from a re-analysis of the deposited data

Results flagged for a closer look

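The difference of Cdk1 between Myb and scrambled shRNA differed between the days. Its interaction of day and shRNA was 1.28 on the log2 scale (SE 0.21, limma adjusted p 0.00886), with a difference of -0.03 at day 9 and of -1.30 at day 3. At day 3 the level was lower on 3 of 3 arrays with Myb shRNA. These values come from 1 of the 3 Cdk1 probes, the only 1 that passed the detection filter.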

How the results depend on the processing

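No difference of a named gene reversed its sign past the threshold. With the replicate number as a block 2331, 3401, 2367 and 2818 genes were called (day 9 shRNAs, day 3 shRNAs, days with Myb shRNA, days with scrambled shRNA). In the same order 6, 13, 14 and 14 members were called. The interaction, not read as paired, gave 715 genes with the block. The block ended no member's call. Array weights gave 2742, 6565, 4778, 4674 and, for the interaction, 3400 genes, and 10, 23, 20, 22 and 12 members, but their estimation stopped before convergence. Without the arrays numbered 3 there were 2411, 3603, 2478, 3524 and 1415 genes, and 12 and 13 (shRNAs), 10 and 16 (days) and 8 (interaction) members. Median scaling gave 978 genes at day 9 and 47 for the interaction, and moved the median of all genes to -0.111 and -0.103 for the days. Detection on all 12 arrays gave 80 genes for the interaction. Cyclic loess gave 3 members for the days with scrambled shRNA. The causes were not tested. With each array left out in turn the genes called ranged over 949 to 1900, 1445 to 3024, 1039 to 1978, 811 to 2751 and 52 to 328, and the members over 1 to 5, 7 to 12, 3 to 7, 3 to 8 and 1 to 1. The slide as a block was not run, since the slide of each array is not given in the sources used here. Signal over background limits members detected in part of the groups, such as Mki67, Mcm10 and Aurkb.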
